A study of Danio rerio with 4 samples.

Results

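The small heat shock proteins are ATP-independent chaperones built around an alpha-crystallin domain. The 10 zebrafish genes of this family examined here were hspb1, hspb3, hspb6, hspb7, hspb8, hspb9, hspb11, hspb15 and the duplicated alphaB-crystallin genes cryaba and cryabb. They were found by the RefSeq transcript that each array probe targets, which gave 16 probes among 43603 and 10 genes among the 13373 that could be named. Gene expression was measured in testes of 4-month-old zebrafish exposed for 6 weeks to 20 µg/L of microcystin-LR (MCLR), which cyanobacteria make and which inhibits the protein phosphatases PP1 and PP2A, or to 0 µg/L (control). Each group had 2 1-colour arrays of Cy3-labelled RNA, and the labels give no strain. The series text speaks of 2 independent experiments, but the labels do not tie the replicates to them or say how many fish each sample holds, so the p-values measure only the spread between these samples. In whole testis, fewer cells of a type and less RNA per cell cannot be told apart.

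Small heat shock proteins hold unfolding proteins in a soluble state until Hsp70 and its partners refold them or pass them on for degradation. Heat shock factors switch on several family members together with Hsp70, while other members are made in muscle or lens without stress. Okadaic acid and other inhibitors of PP1 and PP2A are known to raise phosphorylation of mammalian Hspb1, a change that a measurement of RNA does not see.

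All 4 arrays lay on 1 slide, MCLR in positions 1 and 2 and control in positions 3 and 4, and position cannot be told apart from group. Levels are given as log2 signal relative to the 75th percentile of each array, which was between 159.9 and 262.6 times the median negative control spot. The share of spots well above background ran from 81.9% to 84.7% among control arrays and from 86.4% to 88.2% among MCLR arrays, and 0 spots were saturated. Of the testis markers, 13 of 13 measured for germ cells and 9 of 9 measured for Sertoli and Leydig cells stood well above background on all 4. So did 17 of 17 skeletal muscle, 5 of 5 smooth muscle and 13 of 17 lens markers measured. Of all genes tested, which had to be detected in at least 1 group to enter, 92.0% did. Detection alone therefore does not set testis apart. Different probes differ in brightness for reasons of their own, so each probe is compared only with itself across arrays.

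Of the 10 genes, 5 had a probe well above background on all 4 arrays: hspb1, hspb8, hspb11, cryaba and cryabb. Another 3, hspb6, hspb7 and hspb9, were detected on both MCLR arrays and on neither control array. The tested hspb3 probe was detected on both control arrays and on neither MCLR array, while the other hspb3 probe was detected on 1 array of each group. The remaining gene, hspb15, stood above background on control replicate 1 alone. In a limma fit over 24323 genes, 0 of the 9 tested members were called higher (background 0% of all genes) and 0 lower (background 0%) at an adjusted p under 0.05. At an unadjusted p under 0.05, 3 members were higher, against 8.67% of all genes, and 1 was lower, against 0.53%. The tested probes of these 4 genes, hspb3, hspb6, hspb7 and hspb9, entered the test only through the group where they were high, so their number is no support for a response. The 5 genes detected throughout had adjusted p from 0.863 to 0.999, their groups overlapped in 5 of 5 cases, and the difference of group means was smaller than the larger difference between replicates in 5 of 5. Of all genes detected throughout, 31.1% had groups without overlap and 5.01% an unadjusted p under 0.05, against 0 of these 5 in both counts. The median log2 fold change of these 5 was 0.13, against 0.06 over all genes detected throughout. Over the 9 tested members it was 0.17, against 0.08 over all genes. The 9 include the 4 genes that entered only through the group where they were high, so this median is no support for a response. It was 0.56 without control replicate 2, 0.44 without MCLR replicate 1 and -0.10 without control replicate 1.

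**Figure D1:**
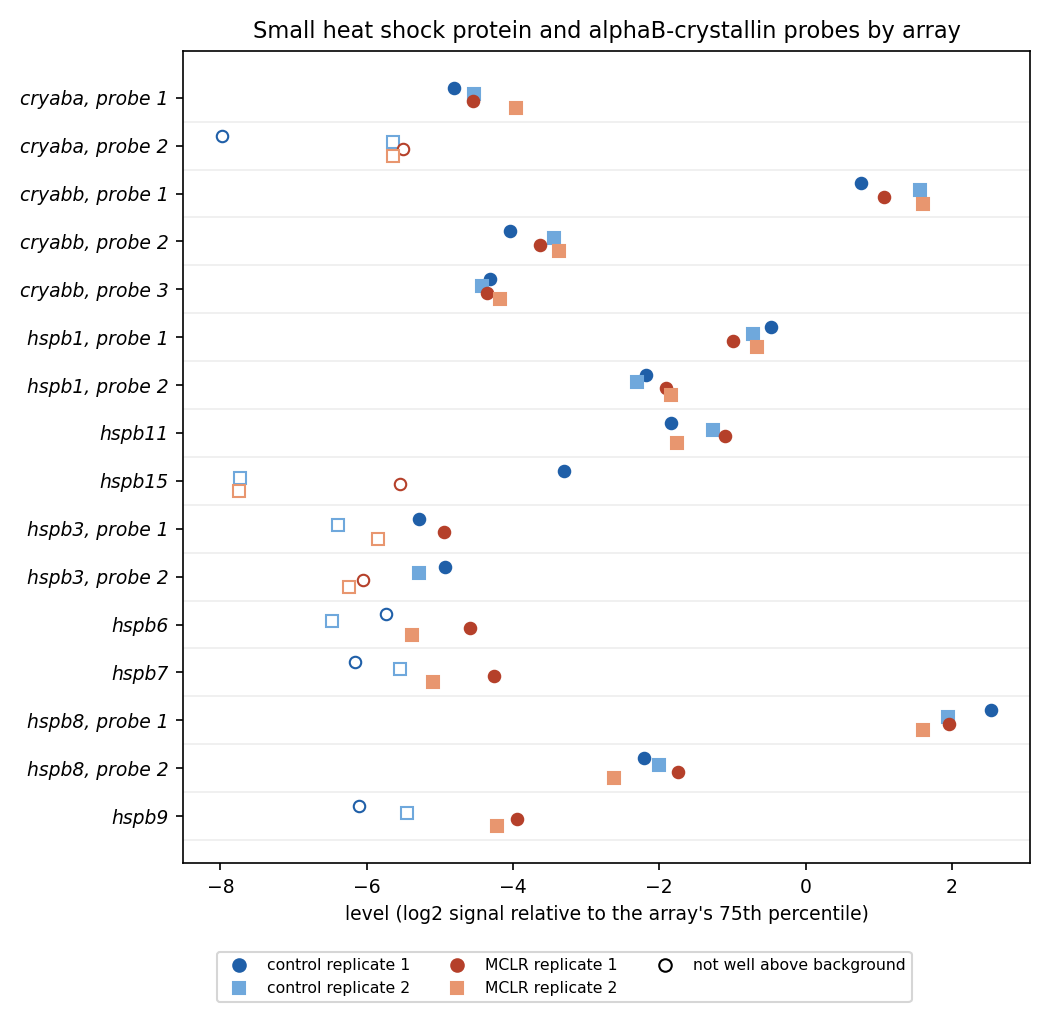
Level of each of the 16 probes on the 4 arrays, as log2 signal relative to the array's 75th percentile, with open symbols where the probe was not well above background. Probes of 1 gene are numbered by their mean level; the hspb6, hspb7 and hspb9 probes have open symbols on both control arrays, and hspb15 is filled on control replicate 1 alone.

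The hspb1 gene encodes the stress-inducible chaperone also known as Hsp27, which stabilises actin filaments. Its brighter probe had levels of -0.47 and -0.73 in control testes and -0.99 and -0.66 in MCLR testes. Control replicate 1 was highest and MCLR replicate 1 lowest, and the groups overlapped. Its fitted log2 fold change of -0.23 ± 0.26 (standard error, as for the other genes, with n = 2 in each group) came with a 95% interval from -0.88 to 0.43 and an adjusted p of 0.999. The other probe went the opposite way, with -2.18 and -2.30 in control testes and -1.91 and -1.83 in MCLR testes, for a log2 fold change of 0.37 without overlap of the groups. With the mean of both probes the gene's log2 fold change was 0.071, so its direction was not settled by these arrays.

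The product of hspb8 works with the co-chaperone Bag3 to deliver damaged proteins to autophagy. Its brighter probe had levels of 2.54 and 1.95 in control testes and 1.96 and 1.60 in MCLR testes. In linear processed signal, before scaling, this was 2284 and 1198 units in control testes and 1174 and 1208 units in MCLR. After scaling, the linear levels were 5.81 and 3.86 in control testes and 3.90 and 3.04 in MCLR. They were highest on control replicate 1 and lowest on MCLR replicate 2. The log2 fold change was -0.46 ± 0.31, with a 95% interval from -1.24 to 0.31 and an adjusted p of 0.863. Leaving out control replicate 1 gave -0.17, and leaving out control replicate 2 gave -0.76. The other probe had -2.20, -2.0, -1.74 and -2.61 on the arrays in the same order, control then MCLR, a log2 fold change of -0.07. The bag3 gene had -1.58 and -1.46 in control testes and -1.79 and -1.77 in MCLR testes. Both MCLR values of bag3 lay below both controls, but its log2 fold change of -0.26 ± 0.23 had an adjusted p of 0.964.

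Among the 11100 named genes well above background on all 4 arrays, the 5 whose deviations from their own mean lay nearest to those of hspb8 were tph2, for the neuronal enzyme of serotonin synthesis, atp6v0cb, for a proton pump subunit, mapre3b, for a microtubule end-binding protein, traf4a, for a signalling adaptor, and rd3. Their distances ran from 0.05 to 0.08 log2 units over the 4 arrays, and their log2 fold changes from -0.47 to -0.41. With 4 points a pattern carries little information, and likeness is given as a description only.

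AlphaB-crystallin is a structural chaperone of the lens that mammals also make in heart and skeletal muscle. Zebrafish carry cryaba, expressed mainly in lens, and cryabb, expressed more widely. The brightest cryabb probe had levels of 0.76 and 1.57 in control testes and 1.07 and 1.60 in MCLR testes. The lowest and the second highest value both came from controls. The log2 fold change was 0.17 ± 0.37, with a 95% interval from -0.76 to 1.1 and an adjusted p of 0.999. It was -0.23 without control replicate 1 and -0.09 without MCLR replicate 2, so that its sign rested on single arrays. The other probes of cryabb, at -4.05, -3.44, -3.63 and -3.37 and at -4.32, -4.42, -4.36 and -4.18 in the order control then MCLR, gave log2 fold changes of 0.24 and 0.10.

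In the RefSeq annotation of assembly GRCz12tu, cryabb has hspb2 as its neighbour, a small heat shock gene of muscle in mammals that was not among the 10. The single hspb2 probe had -3.52 and -2.60 in control testes and -2.76 and -2.65 in MCLR testes, for a log2 fold change of 0.35 ± 0.36 with an adjusted p of 0.988. Like the brightest cryabb probe, it was lowest on control replicate 1. The summed linear level of 17 skeletal muscle genes was 53.4 on control replicate 1, 109.6 on control replicate 2, 97.7 on MCLR replicate 1 and 66.8 on MCLR replicate 2. All 17 of these genes stood well above background on every array, and 12 of the 17 were lowest on control replicate 1. The sum was mostly mybpc2b, for a myosin-binding protein (like the other marker genes named here, picked out after its values were seen), at 40.2, 96.0, 83.6 and 55.1, and without it the other 16 genes summed to 13.2, 13.6, 14.1 and 11.7, lowest on MCLR replicate 2. The sum of 5 smooth muscle genes was 29.2, 53.3, 42.4 and 47.5 on the same arrays, also lowest on control replicate 1, as were 4 of the 5 genes, and with 5 of 5 detected throughout. The order of the other 3 arrays differed between cryabb and the skeletal muscle sum. Being lowest on control replicate 1 was not particular to muscle. The Sertoli and Leydig marker sum was also lowest there, at 94.9 against 148.4, 127.9 and 133.8. So was the lens marker sum, at 22.8 against 27.8, 25.8 and 28.0, which ran in the same order over the arrays as cryabb. The germ cell marker sum was lowest on MCLR replicate 1, at 333.8. The part of muscle tissue in the cryabb values was not tested.

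**Figure D2:**
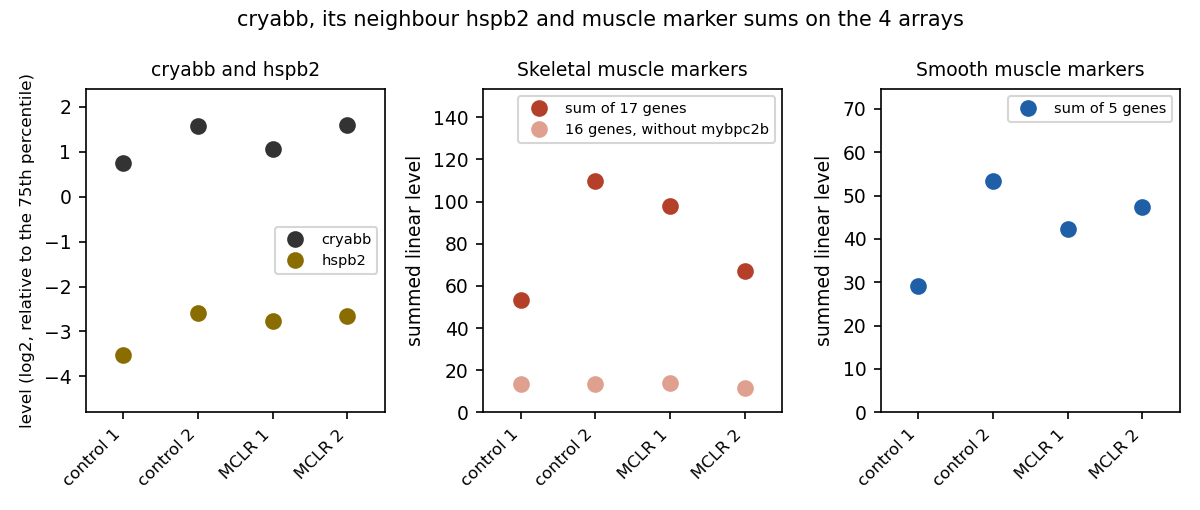
Levels of cryabb and hspb2 (log2, relative to the 75th percentile) and summed linear levels of the skeletal (with and without mybpc2b) and smooth muscle markers, each point being 1 array. Control replicate 1 is lowest for cryabb (0.76), hspb2 (-3.52), the skeletal muscle sum (53.4) and the smooth muscle sum (29.2), but not for the skeletal muscle sum without mybpc2b, which runs from 11.7 to 14.1. The sums of Sertoli and Leydig markers and of lens markers, not drawn, are also lowest on that array.

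The detected cryaba probe had levels of -4.81 and -4.54 in control testes and -4.54 and -3.96 in MCLR, with MCLR replicate 2 highest. The log2 fold change was 0.42 ± 0.30 (adjusted p = 0.888), but -0.023 with quantile normalization, -0.031 after a background correction with an offset (normexp on raw signal, then quantile normalization) and -0.027 in the deposited value table. The offset, 50 units added to every signal, shrinks the fold changes of dim probes in any case. The second cryaba probe was not well above background on any array. The lens gene cryaa, for alphaA-crystallin, was also dim. Of its 4 probes, the one taken for the fit stood above background in MCLR only, at -4.24 and -5.32. It was at least 1.94-fold higher there (adjusted p = 0.378), but its log2 fold change after the background correction was 0.06. The limma interval of its log2 fold change before that correction ran from 0.27 to 2.27, so the bound is not a guaranteed minimum. Another cryaa probe was detected in the same way, with a log2 fold change of 2.01, or 0.13 after the background correction. Of the remaining probes, 1 was detected on 1 array of each group and the other on none. Of 15 tested lens markers, 13 stood well above background on every array, and their summed linear level was 22.8 and 27.8 in control testes and 25.8 and 28.0 in MCLR testes. The part of lens-type transcripts in the cryaba values was not tested.

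The zebrafish hspb11 gene is known from embryos, where its RNA rises in skeletal muscle when cholinergic transmission is disturbed. Its probe had levels of -1.84 and -1.27 in control testes and -1.10 and -1.75 in MCLR testes. Each group held 1 higher and 1 lower array. The log2 fold change was 0.13 ± 0.35, with a 95% interval from -0.74 to 1.00 and an adjusted p of 0.999, and it was -0.16 without control replicate 1 and -0.20 without MCLR replicate 1. RefSeq also lists hspb11 as an earlier name of hspb9l, which is another gene and not among the 10. Its values, taken up after they were seen, were -3.01 and -3.03 in control testes and -2.56 and -2.45 in MCLR testes, for a log2 fold change of 0.51.

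The hspb9 gene is expressed in testis in human and mouse. In these zebrafish testes its single probe was not well above background on either control array, at -6.10 and -5.45, and stood above it on both MCLR arrays, at -3.94 and -4.21. In processed signal the values were 5.72 and 7.10 units in control testes and 19.6 and 21.5 units in MCLR testes. Both MCLR arrays thus lay above both controls, as in 25.3% of all genes, and replicates differed by less than the groups did. The probe entered through the MCLR arrays alone, which largely set this separation, so it is no support for a response. If the MCLR signal is taken as RNA, hspb9 was at least 2.97-fold higher, with an adjusted p of 0.153 in limma, which ran from 0.0562 to 0.997 over the alternatives. The fitted log2 fold change of 1.70 became 1.13 under quantile normalization, 1.1 in the table that the authors deposited and 0.15 after the background correction with an offset. The bound of 2.97-fold thus did not hold on every scale. It also takes no account of the spread between replicates, so it is not a guaranteed minimum. The limma interval of the log2 fold change of 1.70 ran from 0.92 to 2.48. Because of the way the probe entered, that interval is no support for a response either.

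The products of hspb6 and hspb7 act in muscle: mammalian Hspb6, also called Hsp20, takes part in smooth muscle relaxation, and hspb7 is needed for heart development in zebrafish. The hspb6 probe had levels of -5.73 and -6.47 in control testes and -4.58 and -5.39 in MCLR, at least 1.62-fold higher in MCLR (adjusted p = 0.459). The hspb7 probe had -6.15 and -5.55 in control testes and -4.25 and -5.10 in MCLR, at least 2.03-fold higher on that scale (adjusted p = 0.407). Neither was well above background on a control array, and the groups did not overlap, as in 25.3% of all genes in this direction. Detection in MCLR only largely sets such a separation, and most of all genes were detected throughout, so that share is an unlike comparison. The log2 fold changes of hspb6 and hspb7 were 0.31 and 0.49 with quantile normalization and 0.33 and 0.45 in the deposited value table. These bounds thus did not hold on every scale. They also take no account of the spread between replicates, so they are not guaranteed minima. On the scale of the bounds, the limma intervals of the log2 fold changes ran from 0.12 to 2.12 for hspb6 and from 0.21 to 2.15 for hspb7. Both probes entered through the MCLR arrays alone, so these intervals are no support for a response. After the background correction the log2 fold changes were 0.02 and 0.04, but its offset shrinks those of probes this dim in any case. Few such probes could reach 2-fold there. Of the members tested, 3 were at least 2-fold higher at an unadjusted p under 0.05, against 5.37% of all genes, but 1 (hspb9) with quantile normalization or in the deposited value table, 1 without MCLR replicate 1, and 0 after the background correction.

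The genes detected in the same way as these 3 were higher in MCLR as a class, which that pattern of detection largely sets. A total of 708 genes stood above background on both MCLR arrays and on neither control array, against 72 with the reverse, and the median log2 fold change of the 708 was 1.86. Of those 708 genes, 93.1% were at least 2-fold higher at an unadjusted p under 0.05. A larger log2 fold change than that of hspb6 was found for 88.6% of them, than that of hspb7 for 85.6% and than that of hspb9 for 59.5%. The background also differed between groups. The median of 153 negative control spots, as raw signal minus local background, read 10 and 8.5 units for the controls against 14 and 13 units for MCLR. On the same scale the hspb9 probe read 17 and 19 units in control testes and 34 and 34.5 units in MCLR, the hspb7 probe 18 and 18.5 against 30 and 28 units, and the hspb6 probe 15 and 14.5 against 26 and 21.5 units. Heart muscle markers, 5 of 8 detected on all arrays, had 8 of 8 log2 fold changes above 0, 3 of them at an unadjusted p under 0.05 (8.67% of all genes). Of all genes with a mean level from -5 to -4, 80.9% lay above 0, and of those below -5, 88.5%. The 3 were tnnc1a, myh6 and tnni1b, of which myh6 and tnni1b were each not well above background on 1 control array. The heart markers had summed linear levels of 1.24 and 1.30 in control testes and 1.43 and 1.52 in MCLR testes. Most of this sum was actc1a, at 0.88 and 0.76 in control testes and 0.77 and 0.96 in MCLR testes, with a log2 fold change of 0.07. Without it the sums were 0.36 and 0.54 in control testes and 0.66 and 0.57 in MCLR testes. The part of background and of heart-type transcripts in the differences of hspb6, hspb7 and hspb9 was not tested.

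**Figure D3:**
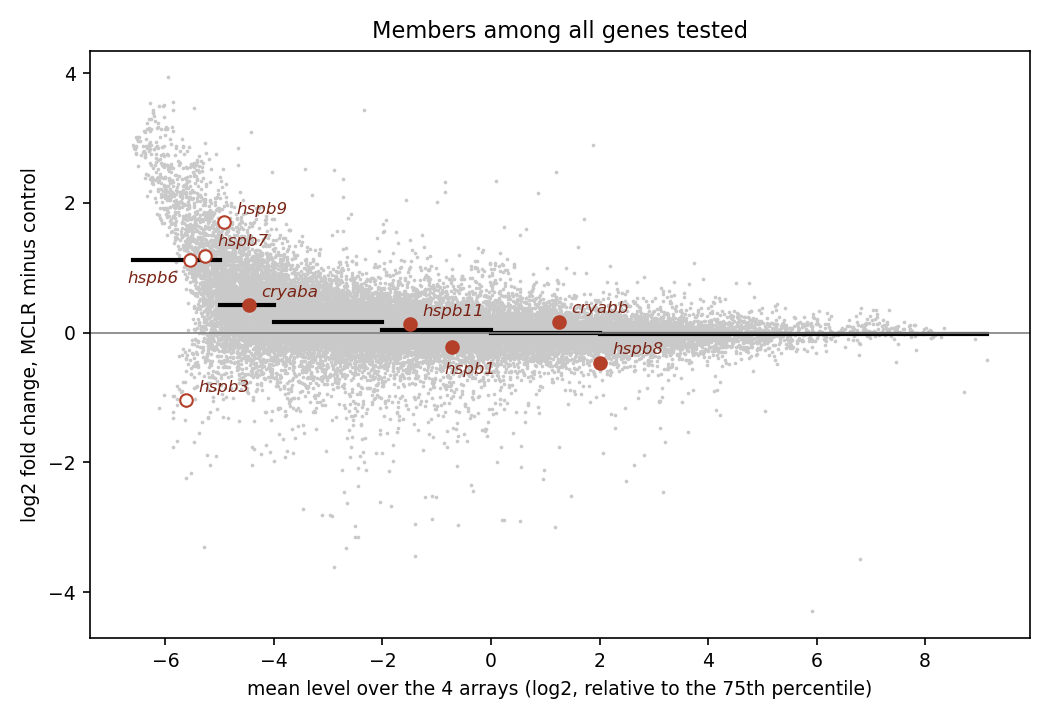
Log2 fold change of MCLR minus control against mean level for all 24323 genes tested (grey), with the 9 tested members in red, open where 1 group was not well above background. Black bars give the median of genes by level: it is 1.12 below a mean level of -5, 0.43 from -5 to -4 and -0.02 above 2, so that dim genes as a class lie above 0.

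The hspb3 gene, whose product pairs with Hspb2 in mammalian muscle, was 1 of 3 tested members with a negative log2 fold change, with hspb1 and hspb8, and the only one of them with an unadjusted p under 0.05. Its tested probe had levels of -4.93 and -5.28 in control testes and -6.05 and -6.24 in MCLR, where it was not well above background. By this probe it was at least 1.21-fold lower in MCLR (adjusted p = 0.252), a direction without overlap that 9.08% of all genes shared. This made 1 member at least 2-fold lower in the fit at an unadjusted p under 0.05, against 0.243% of all genes. After the background correction, whose offset shrinks the fold changes of dim probes, it was 0. The probe entered through the control arrays alone, which largely set this separation, so it is no support for a response. Most of all genes were detected throughout, so both shares are an unlike comparison. The 72 genes detected as this probe was had a median log2 fold change of -0.64 and a lower quartile of -1.02, against -1.04 for hspb3. Its log2 fold change was -0.87 without control replicate 1 and -0.94 without MCLR replicate 2. The other hspb3 probe, at -5.29 and -6.39 in control testes and -4.94 and -5.85 in MCLR, gave a log2 fold change of 0.45, so the sign of the gene depended on the probe. Raw signal minus local background of the tested probe was 24 and 16.5 units in control testes and 23 and 20 units in MCLR, so that on this scale the groups overlapped.

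The probe of hspb15 had levels of -3.31 on control replicate 1, -7.73 on control replicate 2, -5.54 on MCLR replicate 1 and -7.75 on MCLR replicate 2. In processed signal this was 39.7 units against 1.46, 6.47 and 1.85 units. A single array carried the signal, no group was detected as a whole, and no test was made. In the GRCz12tu annotation the gene lies next to myhz1.1, a skeletal muscle myosin gene. On control replicate 1, where hspb15 was highest, myhz1.1 was lowest, at -2.02 against -1.05, -0.83 and -1.32. The part of muscle tissue in the hspb15 signal was not tested.

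**Figure D4:**
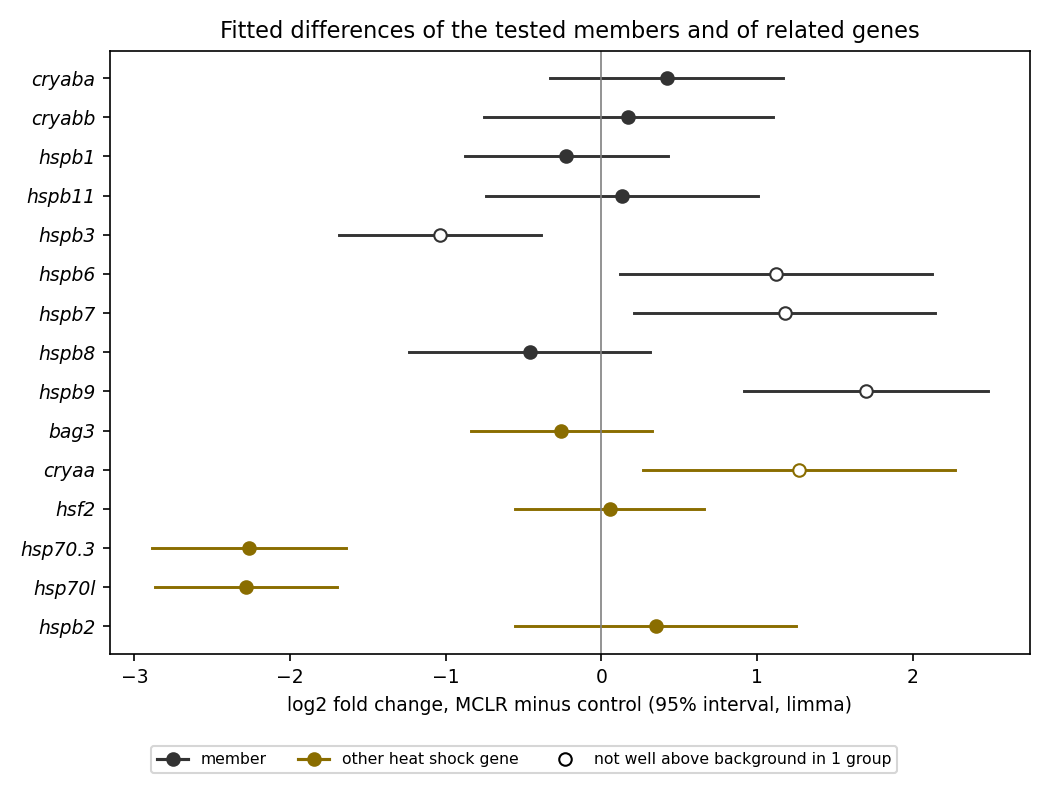
Fitted log2 fold changes (MCLR minus control, points) with 95% intervals from limma (bars) for the 9 tested members and for 6 other heat shock genes, open where 1 group was not well above background. The intervals of hspb1 and hspb8 include 0, while those of hsp70l and hsp70.3 lie between -2.89 and -1.64.

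The rest of the heat shock system was read from 7 lists with 57 tested genes, of which limma called 0 higher and 0 lower after adjustment. At an unadjusted p under 0.05, 2 were higher, against 8.67% of all genes, and 2 were lower, against 0.53%. The median log2 fold change was -8.05e-03. Both lower genes code for inducible Hsp70, which receives clients from small heat shock proteins: hsp70l had 3.70 and 3.57 in control testes against 1.38 and 1.32 in MCLR, and hsp70.3 had 2.23 and 1.95 against -0.09 and -0.26. Their log2 fold changes were -2.29 and -2.26, with adjusted p of 0.0605 and 0.0613. The 2 probes of hsp70l ran from -2.29 to -2.27, and the 3 of hsp70.3 from -2.26 to -1.42. The 95% interval of hsp70l, -2.87 to -1.70, did not meet that of hspb1 or hspb8, though the difference between genes was not tested. In the same list of 13 tested Hsp70 and Hsp110 genes (median 0.05), hspa1b stood at 0.61 ± 0.27 (adjusted p = 0.640). The higher genes were cryaa, above, and the Hsp40 gene dnajb5, which had no control signal well above background. The dnajb5 gene was at least 1.97-fold higher in MCLR (adjusted p = 0.147). Its fitted log2 fold change of 1.94 became 0.12 after the background correction, so the bound did not hold on every scale. The offset of that correction shrinks the fold changes of dim probes in any case. Both cryaa and dnajb5 entered the test through the MCLR arrays alone, so their number is no support for a response.

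The heat shock factors and their binding proteins gave a median of -0.01 over 4 genes. Among them, hsf2 had 2.00 and 2.25 in control testes against 2.16 and 2.19 in MCLR testes, for a log2 fold change of 0.05, and hsf5, a factor required for zebrafish spermatogenesis, had -0.07. The binding protein genes hsbp1a and hsbp1b gave -0.13 and 0.06. No probe could be assigned to hsf1, the main heat-responsive factor. Of 9 Bag and partner genes (median -0.10), hspbp1, which regulates Hsp70, gave -0.45 ± 0.27, with another probe at 0.07. In that list bag6 gave -0.64 ± 0.53, with 3.54 and 3.35 in control testes, 3.59 on MCLR replicate 1 and 2.02 on MCLR replicate 2. The 5 Hsp90 genes had a median of 0.11, with hsp90aa1.2 at -0.34, the endoplasmic reticulum form hsp90b1 at 0.33 and hsp90aa1.1 at 0.13. Probes of hsp90aa1.2 ran from -0.34 to 0.08 and those of hsp90aa1.1 from -1.0 to 0.43. The 15 Hsp40 genes had a median of -8.05e-03, with dnajc5aa at -0.49 and dnaja3a at -0.25 (another probe 0.70). A further 9 chaperone genes had a median of -0.14. Among them were ptges3a at -0.27 (another probe 0.09), the mitochondrial Hsp60 gene hspd1 at 0.25 (another probe 0.68) and the collagen chaperone gene serpinh1b at -0.18.

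**Figure D5:**
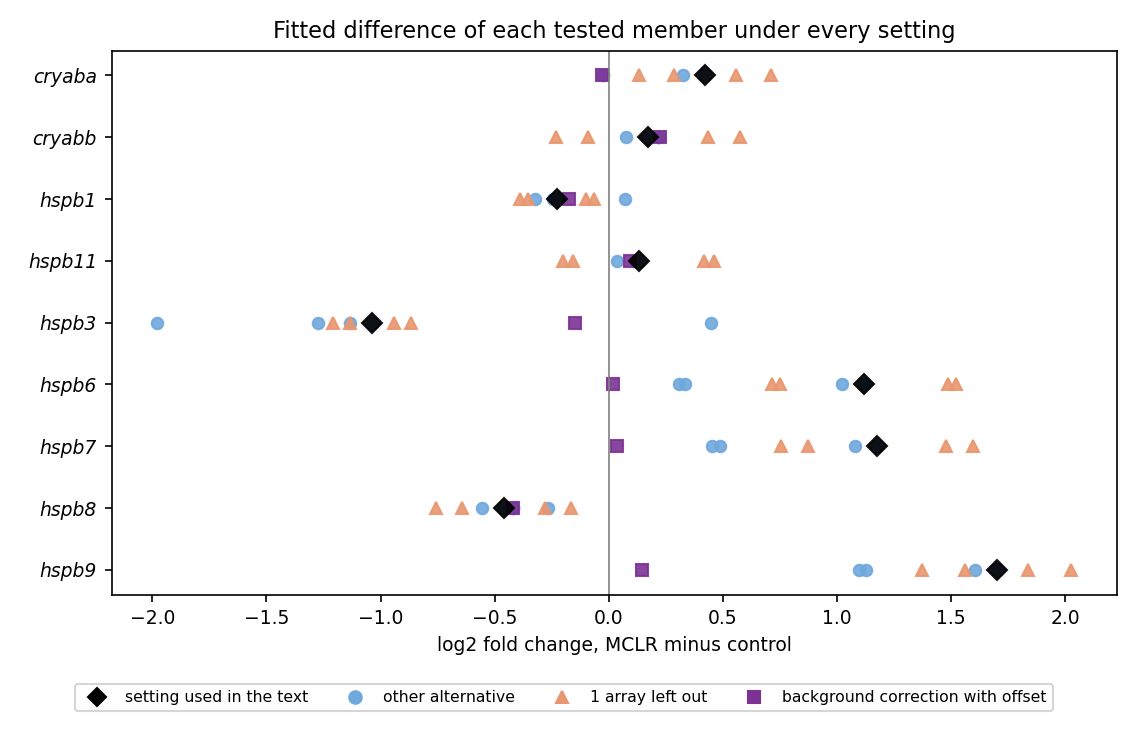
Fitted log2 fold change (MCLR minus control) of each tested member under the setting used in the text and under every alternative. The values of hspb8 stay below 0, from -0.76 to -0.17, those of hspb6, hspb7 and hspb9 stay above 0 but come near 0 after the background correction with an offset (0.02, 0.04 and 0.15), and cryaba, cryabb, hspb1, hspb3 and hspb11 cross 0. The offset shrinks the fold changes of dim probes in any case.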

How the data were processed

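The authors' software for reading the scans was Agilent Feature Extraction 11.0.1.1, per the submitters' processing notes. In the deposited scanner output the processed signal is an intensity on a linear scale from which background and a spatial trend had been removed, per the file headers, and median raw and local background intensity values and 0 or 1 marks per spot (well above background, saturated, outlier) accompany it, a mark being other than a measurement. The deposited table of processed values is on a log2 scale, its quartiles being equal between arrays; its tool is not given in the sources used here, and its values correlated with the log2 processed signal at 0.992 to 0.995 across probes. It served as an alternative.

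Each array's processed signal was divided by its own 75th percentile and put on a log2 scale. Outlier spots were left out, which removed 60 probes. Transcript identifiers named 25978 probes (59.6%) through RefSeq (GRCz12tu). Probes entered if both arrays of 1 group or more marked them well above background, and the entering probe with the highest mean level stood for its gene, which gave 24323 genes. The 2 groups were compared with limma 3.58.1 (R 4.3.3), with group as the only term, moderated variances, two-sided p-values and Benjamini-Hochberg adjustment over all genes at 0.05, tested on simulated data. The fit had 2 residual and 3.52 prior degrees of freedom. Where all arrays of a group were not well above background, a fold is a lower bound against the higher of the probe's own signal and the lowest signal well above background on that array. Such a bound belongs to the 75th percentile scale, and other normalizations or the background correction can give a smaller fold. It takes no account of the spread between replicates, so it is not a guaranteed minimum. The background correction adds an offset of 50 units to every signal, which shrinks the fold changes of dim probes whatever their RNA. Small values or low counts of 2-fold genes after it therefore do not show that levels were equal. Of each heat shock list the 3 genes with the smallest p were named, plus hsf2, hsp70l, hsp70.3, bag3 and cryaa. Members and lists were chosen with earlier results of these data known. Alternatives were other normalizations, filters, probe summaries, priors, a replicate block and leaving out each array. Python 3.11.15 with pandas 2.3.3 and matplotlib 3.10.9 read the files and drew the plots.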

Additional observations from a re-analysis of the deposited data

How the results depend on the processing

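Of 122 values of the tested members under an alternative, 9 changed sign and 0 passed the adjusted threshold. The sign changed for cryaba with quantile normalization (-0.023), background correction with an offset of 50 (-0.031) and the deposited value table (-0.027), for cryabb without control replicate 1 (-0.23) and MCLR replicate 2 (-0.09), with a range of -0.23 to 0.58 when 1 array was left out, for hspb11 without control replicate 1 (-0.16) and MCLR replicate 1 (-0.20), with a range of -0.20 to 0.46, for hspb1 with the mean of its probes (0.071), and for hspb3 with no filter on dim probes (0.45); the cause was not tested. Members called numbered 0 under every alternative. The median of the tested members ran from -0.10 to 0.56 when 1 array was left out. Members at least 2-fold higher numbered 1 with quantile normalization and the deposited values, 0 after the background correction and 0 among genes detected on all 4 arrays, which leaves them out by construction, and 1 to 3 with 1 array left out. Members at least 2-fold lower numbered 0 after the background correction, with no filter and with detection on all 4 arrays, and 0 to 1 with 1 array left out.

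Over all genes, calls rose from 0 to 214 with median scaling, 2 with a trended and robust prior, and 0 to 322 with 1 array left out (214 without control replicate 1, 322 without control replicate 2). Genes at least 2-fold higher, 1307 in the setting used, numbered 492 with quantile normalization, 11 after the background correction, 349 in the deposited table, 2388 with no filter, 369 with detection on all 4 arrays, 1998 with every probe on its own, and 1033 to 1881 with 1 array left out. Genes at least 2-fold lower, 59 in the setting used, numbered 205, 14, 177, 70, 39 and 91 under these settings, 120 with median scaling and 127 to 701 with 1 array left out (701 without control replicate 2).

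Replicates with the same number deviated together only weakly (r = 0.19 across genes, which are not independent), 2 pairs cannot show a pairing, and the labels do not say that a number marks an experiment. With the replicate number as a block, 0 genes were called, 1348 were at least 2-fold higher and 115 lower, and 0 members were called. Signals near background, as for hspb3, hspb6, hspb7, hspb9, hspb15 and cryaba, limit what these arrays can show.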
